A study of Mus musculus with 6 samples.

Results

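The genes described here are the AP-1 transcription factors and the immediate early genes that are studied with them, chosen by symbol: Fos, Fosb, Fosl1, Fosl2, Jun, Junb, Jund, Egr1, Atf3 and Ier2. All 10 were found among the 17512 genes of the table, and all 10 passed the filter on low counts that left 14773 genes for testing. RNA was sequenced from 6 pMEF lines on the C57bl6 strain background, pMEFs being primary fibroblasts cultured from mid-gestation mouse embryos without their internal organs. The HAT1 WT lines 36, 47 and 78 had an intact Hat1 gene, and the HAT1 KO lines 33, 41 and 72 were labelled as knockouts of it. HAT1 is the enzyme that acetylates histone H4 before the new histone enters chromatin. All lines were grown in medium with 10% fetal bovine serum, and no serum withdrawal or stimulation is named in the labels. The values are levels at harvest, and growth state and handling at harvest are not given in the sources used here. The labels do not say whether the lines came from separate embryos, so p-values measure the spread between these 6 cultures.

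AP-1 is a dimer of basic leucine zipper proteins, made of a Jun protein with a Fos, ATF or another Jun protein, that binds DNA and switches genes of growth, matrix turnover and stress on or off. Its genes belong to the immediate early response: their transcription starts within minutes of a growth factor, serum or stress signal, with no new protein needed, and most of their messenger RNAs are short-lived. Fibroblasts given serum are the setting in which Fos, Jun and Egr1 were classically studied. Fosl1 and Fosl2 respond later and last longer than Fos and Fosb, and Jund is made rather evenly in most cells.

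Of the promoters, 4 are printed, for the 3 genes that were lower in HAT1 KO (Fos, Fosb and Atf3) and for Jun, the main partner of Fos, which did not pass the test. Each line gives the 250 bases before the start of the gene, 5′ to 3′ on the coding strand, from RefSeq on GRCm38.p6, the assembly that the submitters' processing notes name as mm10. Capitals mark the CRE core TGACG with a following T where present, on either strand (in Atf3 as its reverse complement), and in Jun the AP-1-like letters TGACATCA. RefSeq entries were matched for 7 of the 10 genes, and Fosl1, Egr1 and Ier2 are not shown. Fos is at chr12:85473640-85473889 on the plus strand, Fosb at chr7:19310046-19310295 on the minus strand, Atf3 at chr1:191183334-191183583 on the minus strand and Jun at chr4:95052223-95052472 on the minus strand.
Fos: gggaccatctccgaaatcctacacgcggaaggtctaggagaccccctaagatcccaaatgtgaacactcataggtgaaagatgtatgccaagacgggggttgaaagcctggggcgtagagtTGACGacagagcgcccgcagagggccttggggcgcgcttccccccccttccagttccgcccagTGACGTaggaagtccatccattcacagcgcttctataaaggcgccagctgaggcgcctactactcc
Fosb: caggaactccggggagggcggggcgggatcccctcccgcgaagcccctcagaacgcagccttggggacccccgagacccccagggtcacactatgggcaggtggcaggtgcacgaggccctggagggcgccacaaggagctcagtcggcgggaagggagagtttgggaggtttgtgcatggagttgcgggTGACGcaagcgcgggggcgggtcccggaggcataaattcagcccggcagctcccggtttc
Atf3: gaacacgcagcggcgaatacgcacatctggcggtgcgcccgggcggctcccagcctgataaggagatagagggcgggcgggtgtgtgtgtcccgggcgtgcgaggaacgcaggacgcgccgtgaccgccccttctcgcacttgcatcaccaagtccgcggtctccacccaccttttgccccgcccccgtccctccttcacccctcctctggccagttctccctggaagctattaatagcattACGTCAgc
Jun: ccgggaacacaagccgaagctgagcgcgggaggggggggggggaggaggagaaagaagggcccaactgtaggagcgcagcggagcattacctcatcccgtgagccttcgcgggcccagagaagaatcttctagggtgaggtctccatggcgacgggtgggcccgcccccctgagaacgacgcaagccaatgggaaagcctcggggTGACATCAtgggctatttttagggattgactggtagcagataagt

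The CRE is the binding motif of CREB and ATF proteins, which pass on cAMP and calcium signals. The core TGACG was found in Fos at positions -129 to -125 and -66 to -62 from the start, in Fosb at -60 to -56, in Atf3 at -7 to -3 and also in Junb, which was not lower, at -106 to -102, and it occurs in 17.8% of the 32851 promoter windows of the same length. The longer TGACGT, which contains the core, was found in Fos at -66 to -61 and in Atf3 at -8 to -3, against 6.47% of all windows. Jun held TGACATCA at -45 to -38, against 2.93% of all windows. None of the 7 windows held the full CRE TGACGTCA (1.55% of windows), the AP-1 site TGACTCA (4.46%) or a CArG box, the serum response motif (1.47%). Both strands were searched, each window ends at the start given in RefSeq, and a match is a description of letters. Bases further upstream were not searched, so the absence of a motif applies to the windows alone. The Atf3 window lies inside the span of that gene in GENCODE, which also has a start further upstream. The Fosl2 window (chr5:32136222-32136471) also lies inside its gene, which starts at 32135801 in GENCODE. The Jund window (chr8:70697489-70697738) ends before the GENCODE start at 70698949. For Atf3, Fosl2 and Jund the bases directly before the GENCODE start were thus not searched.

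The comparison asked whether these transcripts differ between HAT1 KO and HAT1 WT fibroblasts, as part of the wider question of whether lost chromatin accessibility follows lost transcription. Atf3, Fos and Fosb were lower in HAT1 KO, at 49.6%, 57.6% and 62.9% of the HAT1 WT mean, and each had its 3 KO lines below its 3 WT lines. The other 7 genes overlapped between the genotypes, and the HAT1 KO means of Egr1, Ier2, Fosl2 and Jund lay between 94.2% and 101% of the HAT1 WT means. In the quasi-likelihood test of edgeR, 3 of the 10 genes were past the rule of the study (unadjusted p-value under 0.05 and a change of 1.5-fold or more), all of them lower, where 4.62% of all tested genes were lower and 1.5% higher by that rule. None of the 10 passed an adjusted p-value of 0.05 over all genes in edgeR, which 0.528% of all tested genes did. With voom and sample quality weights 0 passed as well, where 1.81% of all tested genes did. In DESeq2 2 passed, Atf3 and Fosb, where 5.88% of all tested genes did. No overlap between the genotypes was found with the KO lines lower for 3 of the 10 genes (12.4% of all tested genes) and with the KO lines higher for 0 (9.59%). The median log2 fold change of the 10 was -0.075, beside 0.0085 over all tested genes.

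**Figure D1:**
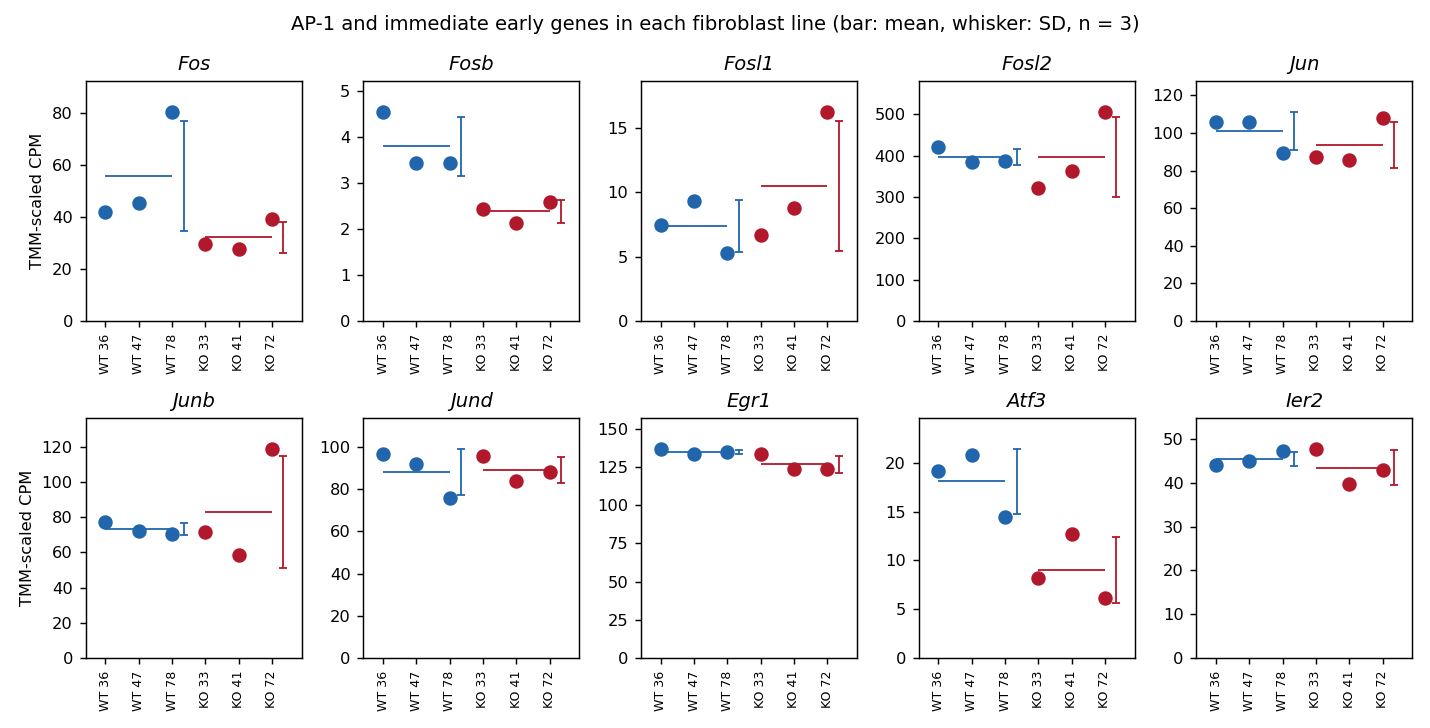
Level of each of the 10 genes in each line, in TMM-scaled CPM on a linear axis from 0, with HAT1 WT lines in blue and HAT1 KO lines in red; horizontal bars are means and whiskers are SDs (n = 3). Fos, Fosb and Atf3 have all KO points below all WT points, WT line 78 is highest for Fos, and KO line 72 is highest for Fosl1, Fosl2 and Junb.

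Total counts lay between 67720628 and 98786746 per library, so the rarest of the 10 genes, Fosb, still had 143 to 342 counts. Hat1 itself was lower in every line labelled HAT1 KO, with 10.0 to 10.3 CPM against 17.4 to 23.0 CPM, a log2 fold change of -0.99 (SE 0.12, adjusted p-value 0.0376 in edgeR). Counts of 4 Y-linked genes were 13788 and 12841 in WT lines 36 and 47, 231 in WT line 78 and 4 to 8 in the KO lines. In WT line 78 Fos (80.1 CPM), Fosb (3.42 CPM) and Atf3 (14.4 CPM) were each above all 3 KO lines. The lines with high Y-linked counts were all HAT1 WT, so this difference largely overlaps the genotype. Its part in the results was not tested, and WT line 78 alone cannot separate it from the genotype. The lane tags were 8, 6 and 7 for WT lines 36, 47 and 78 and 6, 7 and 6 for KO lines 33, 41 and 72. Fibroblast markers were high in all lines, with a summed level of 57738 to 89814 CPM over 10 genes, and the epithelial list had 2 of 6 genes tested, with a sum of at most 2.05 CPM. Of 4 tested endothelial markers, Pecam1 and Cdh5 were lower by the 1.5-fold rule, where 4.62% of all tested genes were lower. Their means were 0.592 and 0.603 CPM in HAT1 WT and 0.189 and 0.333 CPM in HAT1 KO. The 5 tested neural markers had log2 fold changes from -0.083 to 1.89, with a median of 1.12 and 0 past the 1.5-fold rule. Their summed level was 109 to 152 CPM in the WT lines and 132 to 259 CPM in the KO lines. The part of these lists in the results was not tested.

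Macrophage markers moved with the genotype. All 12 of 12 were lower in HAT1 KO by the 1.5-fold rule, where 4.62% of all tested genes were lower. Of the 12, 8 had an adjusted p-value under 0.05 in edgeR, as did 0.528% of all tested genes. The summed level of the 12 was 5066 to 5561 CPM in the WT lines and 2420 to 3041 CPM in the KO lines. Among the defining genes, Ptprc, Csf1r and Adgre1 were present in every line, with means of 107, 593 and 457 CPM in HAT1 WT and 66.6, 354 and 243 CPM in HAT1 KO. The part of these cells in the values of Fos, Fosb, Atf3 and the other genes was not tested, and in bulk RNA fewer cells of a type and less RNA per cell cannot be told apart. Of 12 proliferation genes, 9 were higher in KO at an unadjusted p-value below 0.05 in edgeR, where 5.88% of all tested genes were higher. By the 1.5-fold rule 7 were higher, where 1.5% of all tested genes were, and 0 passed the adjusted threshold, where 0.528% did. Their sum was 535 to 800.3 CPM in WT and 757 to 1101 CPM in KO, and their part was not tested either.

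Fos encodes the founding Fos protein, which cannot pair with itself and needs a Jun partner. It was measured at 41.9, 45.3 and 80.1 CPM in WT lines 36, 47 and 78, and 29.7, 27.7 and 39.0 CPM in KO lines 33, 41 and 72. WT line 78 stood well above the others, while KO line 72 and WT line 36 were close neighbours. The means were 55.8 ± 21.1 and 32.1 ± 6.02 CPM (SD, n = 3 each), with a log2 fold change of -0.80 (SE 0.28, 95% interval -1.47 to -0.13). The unadjusted p-value was 0.0268 and the adjusted p-value 0.278 in edgeR. Without WT line 78 the log2 fold change shrank to -0.44 with an unadjusted p-value of 0.0407, so the size of the difference rested in large part on that line. Within lane 6 (WT line 47 against KO lines 33 and 72) the log2 difference was -0.41, and within lane 7 (WT line 78 against KO line 41) the difference was -1.53. Without KO line 33 or KO line 41 the log2 fold change stayed at -0.74 and -0.70, but the unadjusted p-values rose to 0.0742 and 0.0803.

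Fosb encodes a close relative of Fos, best known in neurons as the source of the long-lived truncated form ΔFosB. It was the least abundant of the 10, at 4.53, 3.42 and 3.42 CPM in WT lines 36, 47 and 78 and 2.44, 2.12 and 2.59 CPM in KO lines 33, 41 and 72. The lowest WT values lay above the highest KO value, and lines within a genotype were closer together than for Fos. The means of 3.79 ± 0.646 and 2.38 ± 0.243 CPM (SD, n = 3 each) gave a log2 fold change of -0.67 (SE 0.19, 95% interval -1.13 to -0.21), and the adjusted p-value was 0.212 with edgeR against 0.0477 with DESeq2. The difference was -0.44 within lane 6 and -0.69 within lane 7. With the lane in the model it was -0.55 with an unadjusted p-value of 0.0687, which ended the call at 1.5-fold, as did leaving out WT line 36 (-0.52).

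Atf3 encodes a stress-induced member of the ATF family that pairs with Jun proteins and often acts as a repressor. It stood at 19.2, 20.8 and 14.4 CPM in WT lines 36, 47 and 78, against 8.22, 12.7 and 6.08 CPM in KO lines 33, 41 and 72. The gap between the genotypes was narrow, with WT line 78 just above KO line 41, while KO line 72 was lowest. The means were 18.1 ± 3.32 and 8.99 ± 3.37 CPM (SD, n = 3 each), the largest change of the 10 at a log2 fold change of -1.01 (SE 0.29, 95% interval -1.71 to -0.31). The adjusted p-values were 0.211 by edgeR and 0.0189 by DESeq2. The difference within lane 6 was -1.56 and within lane 7 it was -0.18, so the size depended on which lines were set side by side, and with the lane in the model the unadjusted p-value was 0.0550 at -0.98.

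**Figure D2:**
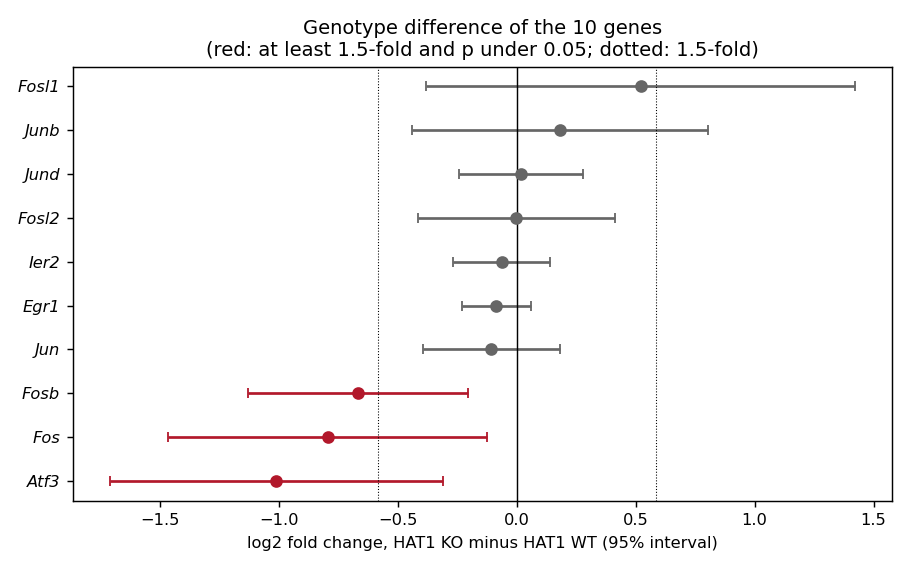
Log2 fold change of each gene, HAT1 KO minus HAT1 WT, from the edgeR fit over 6 lines, with its 95% interval; dotted lines mark 1.5-fold, and red genes are past it at an unadjusted p-value below 0.05. The intervals of Atf3, Fos and Fosb lie below 0, and those of the other 7 genes include 0.

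The late Fos proteins did not follow Fos. Fosl1 encodes FRA-1, which is tied to cell motility and matrix-degrading programmes. It was measured at 7.45, 9.32 and 5.28 CPM in WT lines 36, 47 and 78 and at 6.64, 8.76 and 16.2 CPM in KO lines 33, 41 and 72. KO line 72 was far above all other lines, and the other KO lines lay inside the WT range. The means of 7.35 ± 2.02 and 10.5 ± 5.03 CPM (SD, n = 3 each) gave a log2 fold change of 0.52 (SE 0.37, 95% interval -0.38 to 1.42), which did not pass, and without KO line 72 it was 0.078.

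Fosl2 encodes FRA-2 and was the most abundant of the 10 in CPM, at 420.1, 384 and 387 CPM in WT lines 36, 47 and 78 and 323, 362 and 505 CPM in KO lines 33, 41 and 72. The WT lines were close together and fell between the KO lines, of which line 72 was again the highest. The log2 fold change was -0.0021 (SE 0.17, 95% interval -0.42 to 0.41), and its sign turned in 8 of 14 alternative settings. Without KO line 72 it was -0.20 with an unadjusted p-value of 0.0472.

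Among the Jun genes none passed the edgeR test. Jun, the main activating partner, had 106, 106 and 89.2 CPM in WT lines 36, 47 and 78 and 87.3, 85.4 and 108 CPM in KO lines 33, 41 and 72. Each genotype thus held lines near both ends of the range. Its log2 fold change was -0.11 (SE 0.12, 95% interval -0.40 to 0.18). It ran from -0.21 without KO line 72 to -0.044 without KO line 41 and lay over 1.5 times from the reported value without each of the other 4 lines too. Voom gave -0.23 with an unadjusted p-value of 0.0443. Junb, which in part opposes Jun and restrains the cell cycle, had 77.3, 72 and 70.5 CPM in the WT lines and 71.4, 58.3 and 119 CPM in KO lines 33, 41 and 72. The WT lines were nearly equal and the KO lines spread to both sides, with line 72 far above. The log2 fold change of Junb was 0.18 (SE 0.26, 95% interval -0.44 to 0.80) and turned to -0.16 without KO line 72.

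Jund, the most even of the Jun genes across tissues, had 96.7, 92.2 and 76.0 CPM in WT lines 36, 47 and 78 and 95.9, 83.8 and 88.2 CPM in KO lines 33, 41 and 72. The KO lines fell inside the WT range, and the log2 fold change was 0.016 (SE 0.11, 95% interval -0.24 to 0.28), with the sign turned in 3 of 14 alternatives.

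Egr1 and Ier2, a zinc finger factor and a small nuclear protein that serum induces together with Fos, were the steadiest of the 10. Egr1 was at 137, 134 and 135 CPM in WT lines 36, 47 and 78 and at 134, 124 and 124 CPM in KO lines 33, 41 and 72. Its largest level was 1.10 times its smallest, against 2.89 times for Fos. The log2 fold change of Egr1 was -0.087 (SE 0.060, 95% interval -0.23 to 0.059), an interval that leaves out a 1.5-fold change. Ier2 was at 44.1, 45 and 47.4 CPM in the WT lines and at 47.8, 39.8 and 42.9 CPM in KO lines 33, 41 and 72, with a log2 fold change of -0.064 (SE 0.085, 95% interval -0.27 to 0.14). Lines of both genotypes were mixed in that order, and the interval again leaves out a 1.5-fold change.

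The spread within a genotype differed greatly between the genes. In HAT1 WT the coefficient of variation (SD over mean, n = 3) ran from 1.01% for Egr1 and 3.74% for Ier2 to 27.5% for Fosl1 and 37.8% for Fos. In HAT1 KO it ran from 4.50% for Egr1 to 38.8% for Junb and 47.8% for Fosl1. The median over the 11087 tested genes with a mean at least that of Fosb was 7.33% in HAT1 WT and 9.77% in HAT1 KO. Fos, Fosb, Fosl1, Jun and Atf3 were therefore above the median in both genotypes and Egr1 and Ier2 below it in both.

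Per length, Jund and Fosl2 led. Levels per kb of annotated exon in HAT1 WT were 52.9 ± 6.54 CPM per kb for Jund and 41 ± 2.06 for Fosl2 (SD, n = 3 each). Junb at 31.8 ± 1.57, Jun at 31.6 ± 3.12, Egr1 at 30.1 ± 0.305 and Ier2 at 29.9 ± 1.12 CPM per kb followed, and these neighbours did not differ beyond their spread. Fos came next at 23.7 ± 8.97, within its own spread of that group, then Atf3 at 8.42 ± 1.54, Fosl1 at 3.61 ± 0.995 and Fosb at 0.607 ± 0.103 CPM per kb. In HAT1 KO the order of the extremes was the same, with Jund at 53.5 ± 3.66 and Fosb at 0.381 ± 0.0390 CPM per kb. The length counts every annotated exon of a gene once, 9680 bases for Fosl2 and 6243 for Fosb, so genes with long alternative exons are understated.

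The make-up of the Fos pool is a second way to see the same values. Fos formed 27.2%, 30.1% and 44.1% of the summed CPM per kb of the 4 Fos genes in WT lines 36, 47 and 78, and 25.4%, 21.9% and 21.5% in KO lines 33, 41 and 72. The KO lines lay below the WT lines, with KO line 33 and WT line 36 close together. Fosl2 formed 60.0% ± 7.36 in HAT1 WT and 68.1% ± 1.20 in HAT1 KO (SD, n = 3 each), with every KO line above every WT line. The summed level of the pool overlapped, at 69.0 ± 7.17 and 60.2 ± 14.9 CPM per kb. For 3 lines against 3 the smallest two-sided exact permutation p-value is 0.1, so no share was tested.

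In the Jun pool the shares of the genotypes were closer. Jun formed 27.1% ± 0.596 in HAT1 WT and 24.7% ± 1.31 in HAT1 KO (SD, n = 3 each), with all KO lines lower, and the largest departure was a Junb share of 37.5% in KO line 72, against 24.7% to 29.4% in the other lines.

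**Figure D3:**
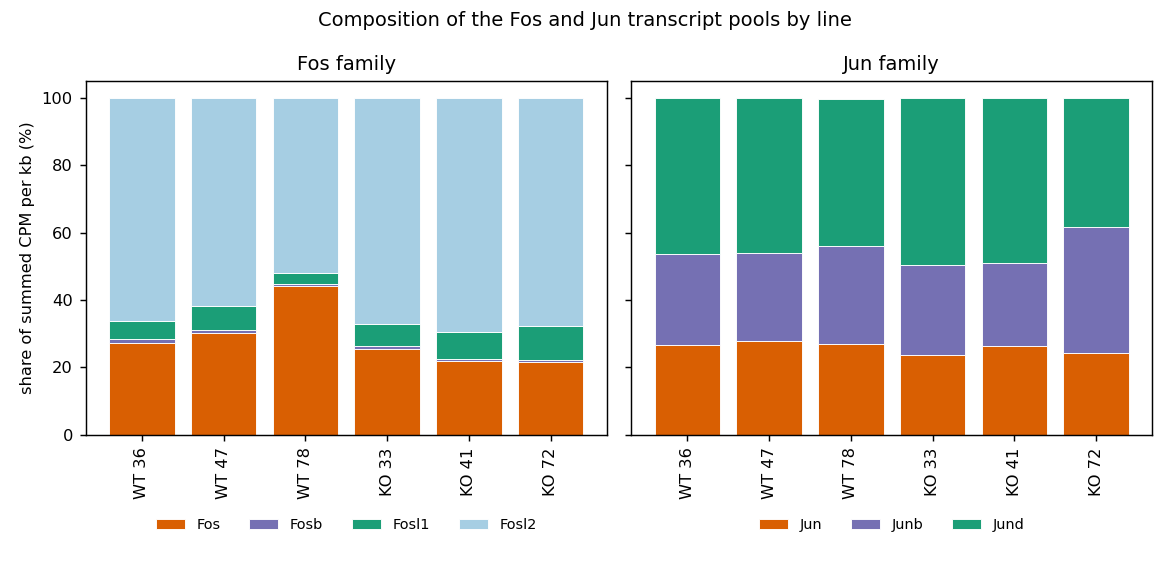
Share of each gene in the summed CPM per kb of exon of the 4 Fos genes (left) and the 3 Jun genes (right), 1 bar per line. The Fos share is highest in WT line 78 at 44.1% and at most 25.4% in the KO lines, and the Junb share is highest in KO line 72 at 37.5%.

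The genes did not rise and fall as 1 group across the lines. Over the 6 lines the Pearson correlation of log2 CPM, a description over libraries that share genotype and batch, was highest for Fosl2 with Junb (0.836), Egr1 with Ier2 (0.761), Fosb with Egr1 (0.755) and Fosl2 with Jun (0.744). Fosl1 had 0.716 with Junb and 0.709 with Fosl2, and all 3 were highest in KO line 72. Fos and Fosb had 0.605, and Fosb and Atf3 had 0.667. The most opposed pairs were Fosl1 with Egr1 (-0.731), Junb with Atf3 (-0.580) and Fos with Jund (-0.577). Among 12337 other genes with a mean of at least 1 CPM, those most like Fos over the 6 lines were Eaf1 (0.9921), Brf1 (0.9877), Mia2 (0.9860), Zfp933 (0.9798) and Rbm6 (0.9790). Those most like Fosl1 included Slc25a13 (0.9913), Hsd17b7 (0.9878), Lipg (0.9835) and Rgs12 (0.9829). Those most like Jun were Galns (0.9922), Pqlc2 (0.9810), Wdr7 (0.9792), Ftl1 (0.9732) and Arc (0.9648), of which Arc is itself an immediate early gene. With 6 points and so many genes, high values of this kind arise readily.

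Of 51 other immediate early genes, all tested, 3 were lower and 0 higher at 1.5-fold, a share of lower genes near the 4.62% of all tested genes. None passed the adjusted threshold in edgeR. At an unadjusted p-value under 0.05 alone, 8 were lower and 1 was higher in edgeR, where 8.77% of all tested genes were lower and 5.88% higher (14.6% together), and the median log2 fold change was -0.076. The 3 were the whole Nr4a family of orphan nuclear receptors, which CREB-driven and growth factor signals induce. Nr4a1 was 50, 57.4 and 66.7 CPM in WT lines 36, 47 and 78 and 30.2, 31.6 and 22.9 CPM in KO lines 33, 41 and 72. The KO lines lay far below the WT lines, and the log2 fold change was -1.04 (SE 0.16, adjusted p-value 0.0642 in edgeR). Nr4a3 averaged 5.51 ± 1.28 CPM in WT and 1.75 ± 0.636 CPM in KO (SD, n = 3 each), or -1.65 on the log2 scale (SE 0.34, adjusted p-value 0.119). Nr4a2 had a log2 fold change of -0.73 (SE 0.21, adjusted p-value 0.216). All 3 were lower in 3 of 3 KO lines and had unadjusted p-values below 0.05 in each of the 9 alternatives run for them. Over these alternatives, in edgeR or DESeq2, the adjusted p-value of Nr4a1 ran from 1.50e-06 to 0.529. That of Nr4a3 ran from 2.93e-04 to 0.582 and that of Nr4a2 from 0.0420 to 0.634.

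Among other partners in the basic leucine zipper class, Maf passed the adjusted threshold in edgeR, as did 0.528% of all tested genes. Of 15 listed, 14 were tested, with a median log2 fold change of -0.11. By the 1.5-fold rule 3 were lower and 0 higher, where 4.62% of all tested genes were lower and 1.5% higher. Maf encodes a large Maf factor that is also a well-known regulator of macrophages. It was 168, 171 and 145 CPM in WT lines 36, 47 and 78 and 76.6, 86.1 and 76.9 CPM in KO lines 33, 41 and 72, a log2 fold change of -1.01 (SE 0.091, adjusted p-value 0.0320 in edgeR). The largest adjusted p-value of Maf over the 9 alternatives was 0.529. Batf, a partner of Jun in immune cells, was also lower at 1.5-fold, at under 1 CPM in every line and a log2 fold change of -1.05 (SE 0.37), and it had an unadjusted p-value under 0.05 in 4 of 9 alternatives in edgeR or DESeq2.

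Signalling genes that feed the immediate early response differed by less than 1.5-fold. Of 25 tested, 0 were past the 1.5-fold rule, where 4.62% of all tested genes were lower and 1.5% higher. At an unadjusted p-value under 0.05 in edgeR 2 were lower and 1 higher, where 8.77% and 5.88% of all tested genes were. Their summed level was 2226 to 2275 CPM in the WT lines and 2181 to 2192 CPM in the KO lines. Log2 fold changes ran from -0.49 to 0.33. The ends of that range were both ribosomal S6 kinases of the ERK or p38 pathways. Rps6ka1 averaged 47.8 ± 2.11 CPM in WT and 34.1 ± 2.57 CPM in KO, and Rps6ka4 85.5 ± 5.40 and 107 ± 9.18 CPM (SD, n = 3 each), with adjusted p-values of 0.0742 and 0.193 in edgeR.

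Of 25 known AP-1 targets, 24 were tested and 1 was lower by the 1.5-fold rule, a share near the 4.62% of all tested genes. It was Tnc, which encodes the matrix glycoprotein tenascin C. Tnc was 5154, 5299 and 5858 CPM in WT lines 36, 47 and 78 and 2995, 4023 and 2102 CPM in KO lines 33, 41 and 72, all below the WT lines. Its log2 fold change was -0.84 (SE 0.24, adjusted p-value 0.205 in edgeR). Tgfb1, next in p-value, had -0.32 (SE 0.13, unadjusted p-value 0.0503). The median of the list was 0.12, with 16 positive and 8 negative values.

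The collagenase Mmp13 and stromelysin Mmp3, textbook AP-1 targets chosen for mention after their values were seen, turned on 1 line. Mmp3 was 20.5, 40.7 and 20.0 CPM in WT lines 36, 47 and 78 and 3.26, 14.0 and 382 CPM in KO lines 33, 41 and 72. Mmp13 was 8.99, 8.40 and 5.24 CPM in the WT lines and 2.13, 5.12 and 128 CPM in the KO lines. KO line 72 was thus highest for both, and KO lines 33 and 41 were below every WT line. Other targets of the list were lowest in KO line 72, such as Mmp9 (8.58 CPM) and Lox (3082 CPM). Any link of these targets to Fosl1, Fosl2 or Junb was not tested. The log2 fold changes of 2.30 for Mmp3 and 2.58 for Mmp13 did not pass (unadjusted p-values 0.190 and 0.124) and turned to -1.65 and -1.05 without KO line 72, with unadjusted p-values of 0.0483 and 0.0502.

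**Figure D4:**
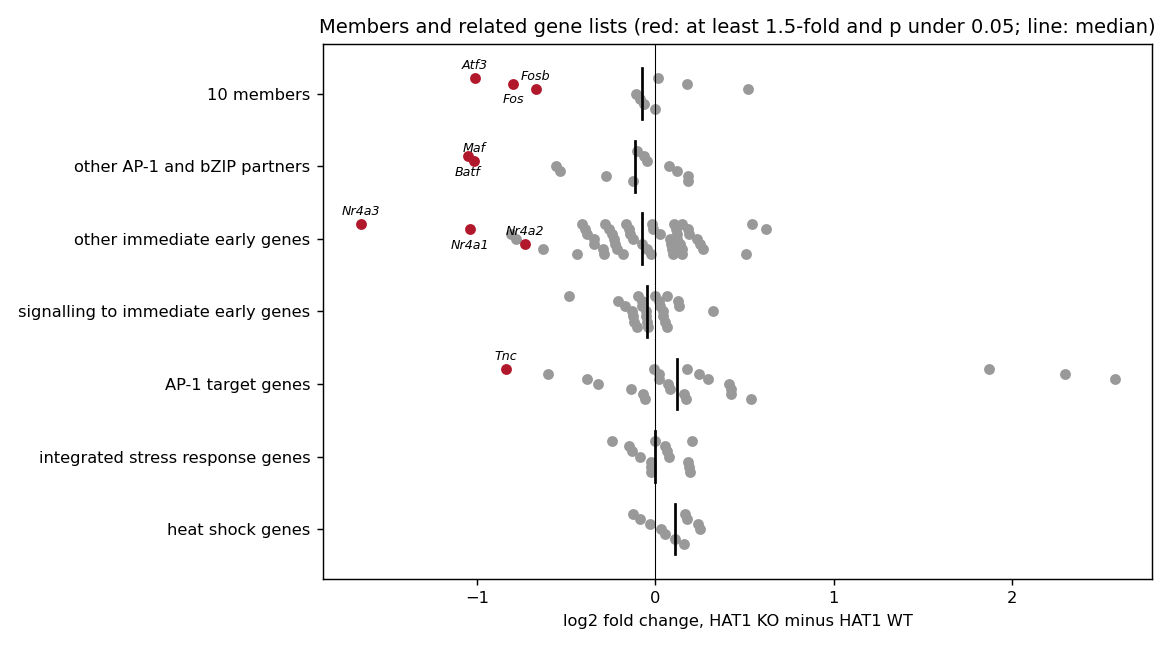
Log2 fold changes, HAT1 KO minus HAT1 WT, of the 10 genes and of 6 related lists, 1 point per gene reported; red points are past 1.5-fold at an unadjusted p-value below 0.05, and black lines are medians over all tested genes of a list. Every red point is below 0: Atf3, Fos and Fosb, then Maf and Batf, the Nr4a genes, and Tnc.

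Few genes of the stress programmes that can induce Atf3 passed a test. Of 15 genes of the integrated stress response, 0 had an unadjusted p-value under 0.05 in edgeR, beside 14.6% of all tested genes, and their median was 0.0017. Their summed level was 2147 to 2209 CPM in the WT lines, with KO lines 33 and 41 above that range (2500 and 2421 CPM) and KO line 72 below it (1896 CPM). The smallest p-values were those of Ddit3, which encodes CHOP (-0.24, SE 0.12), and Herpud1, an endoplasmic reticulum stress gene (0.18, SE 0.13). Ddit3 lies over other annotated genes, so its counts are uncertain. Of 11 heat shock genes, 0 passed 1.5-fold, where 4.62% of all tested genes were lower and 1.5% higher. At an unadjusted p-value under 0.05 in edgeR 2 were higher and 0 lower, where 5.88% and 8.77% of all tested genes were. These 2 were the chaperones Dnajb1 and Hspe1, with log2 fold changes of 0.25 (SE 0.090) and 0.24 (SE 0.090) and unadjusted p-values of 0.0309 and 0.0365. The summed heat shock level, in which the most abundant genes weigh most, was 2585 to 2721 CPM in the KO lines. It was 2327 to 2463 CPM in the WT lines. Hspe1 overlaps Hspd1 on the opposite strand.

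Across the 14 alternative settings the sign of Fos, Fosb and Atf3 did not change. Their unadjusted p-values were under 0.05 in 12, 13 and 13 of the 14, and their adjusted p-values ran from 0.0189 for Atf3 in DESeq2 to a highest value of 0.776, for Fosb. Fosl1 stayed positive, from 0.078 to 0.77, with no unadjusted p-value under 0.05.

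**Figure D5:**
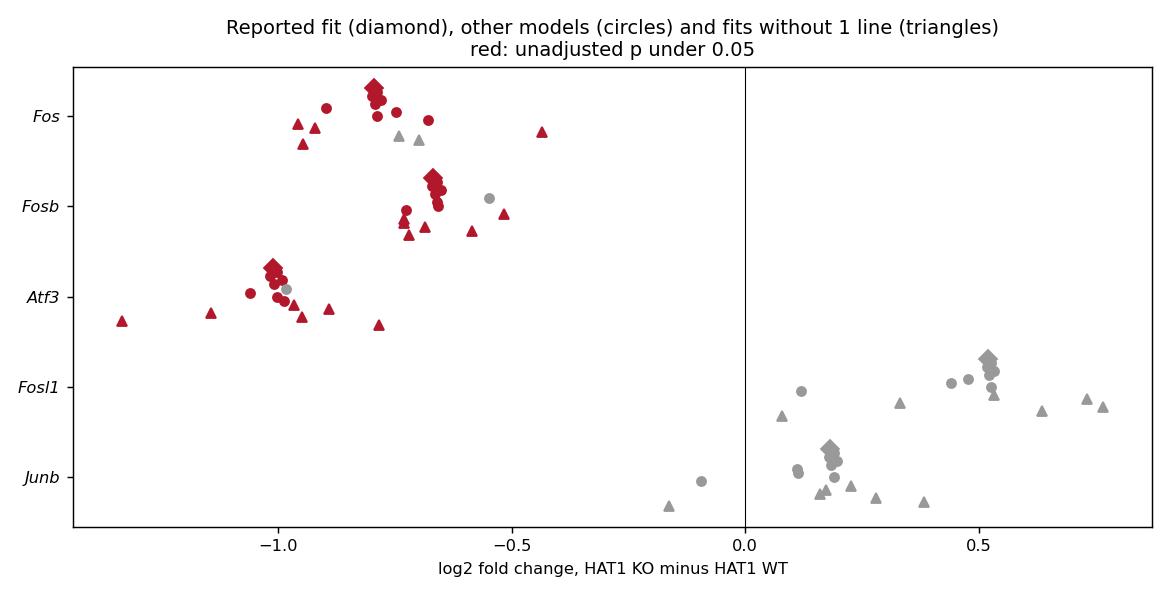
Log2 fold changes of 5 genes, HAT1 KO minus HAT1 WT, in the reported fit (diamonds), 8 other models (circles) and 6 fits that each leave out 1 line (triangles); red marks an unadjusted p-value under 0.05. Fos, Fosb and Atf3 stay below 0 in every setting shown, and Junb lies on both sides of 0.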

How the data were processed

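The authors deposited 1 table of raw read counts per gene for 6 libraries made with a TruSeq RNA kit (v2), with no normalization and no pooling. The submitters' processing notes name mm10 and edgeR. The aligner, the counter and the use of strand are not given in the sources used here, so genes that overlap a neighbour on the opposite strand (Atf3, Fosl1, Jun, Junb and Jund among the 10) carry uncertain counts. Columns with the authors' genotype test (fold change, mean level, F, p and q) were left aside.

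Counts were tested over all genes with edgeR 4.0.16 in R 4.3.3 (filterByExpr, TMM scaling, glmQLFit and glmQLFTest, genotype alone, two-sided, Benjamini-Hochberg adjustment at 0.05). A second rule used the thresholds of the study, 1.5-fold at an unadjusted p-value below 0.05. Values are TMM-scaled CPM. The SE is the log2 fold change divided by the square root of F. Exon lengths come from GENCODE on GRCm38. Groups come from the genotype label and each line is 1 replicate. At 67720628 to 98786746 counts per library precision depends on how far lines differ (common dispersion 0.0747). On simulated counts with 3 lines per genotype, 6% of genes changed by 1.5-fold and 56% of those changed by 2-fold passed the adjusted threshold, over 14546 genes.

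Alternatives used DESeq2 1.42.0, limma 3.58.1 (voom with sample quality weights), other scalings and filters, the lane, the leading digit of the line number, and each line left out in turn. The genes, the lists and the tests were chosen with earlier results of these data known. The named genes were the 10, Hat1, in each of 6 related lists up to 5 genes past 1.5-fold with p under 0.05 (or the 2 smallest p-values where fewer than 2 passed), and the 5 genes most correlated with Fos, Fosl1 and Jun; 2 genes that this rule names are not reported here.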

Additional observations from a re-analysis of the deposited data

How the results depend on the processing

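The count of genes among the 10 past 1.5-fold was 3 and became 1 with the lane in the model (Fos alone) and 2 to 3 in the 6 fits without 1 line (2 without WT line 36, where Fosb was lost, or without WT line 78, KO line 33 or KO line 41, where Fos was lost). The count past the adjusted threshold was 0 and became 2 in DESeq2, where adjusted calls over all tested genes went from 78 to 869. The median of the 10 ran from -0.183 to -0.0219 without 1 line. Genes with no overlap were 3, and 3 to 5 without 1 line, the 5 without KO line 33 or KO line 72. Calls in the 6 lists were 7, and 6 to 11 without 1 line.

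Apart from the Mmp genes, the values that changed sign were those of Fosl2, Junb, Jund and Ier2. Junb moved most, from 0.181 in the reported fit to -0.163 without KO line 72. Fosl2 became 0.0057 with DESeq2 scaling, in edgeR and in DESeq2, 0.0130 with no filter, 0.0011 at a mean of at least 50 counts and 0.0190 with the lane, and ran from -0.203 to 0.127 without 1 line. Voom turned Junb to -0.0952 and Jund to -0.0440. Without 1 line Junb ran from -0.163 to 0.383, Jund from -0.0737 to 0.0901 and Ier2 from -0.136 to 0.0006. Mmp3 was -0.528 with the leading digit in the model and ran from -1.651 to 2.871 without 1 line, and Mmp13 from -1.049 to 3.140. The cause was not tested. Of the 140 values of the 10 genes over the alternatives, 14 changed sign, 120 kept their direction and their side of the unadjusted threshold, 4 became weaker and 2 stronger.

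The labels give the genotypes no shared replicate number. Lines with the same leading digit, paired by assumption, had deviations correlated at -0.244, 0.109 and -0.0631, and that term left 3 of the 10 genes past 1.5-fold and 0 adjusted calls over all genes. Another scaling moved the median of all genes to at most 0.0168. Depth limits only the rarest genes, such as Batf.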
